A study of Homo sapiens with 18 samples.

Results

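The 50 genes described here encode proteins of homologous recombination and of the Fanconi anaemia pathway. They were chosen by symbol from a list, and all 50 were found among the 62830 genes of the deposited table. RNA was sequenced from MDA-MB-231, a human breast cancer cell line of the triple-negative type, in 18 libraries that form 6 groups of 3 and carry 1 batch label. The groups are wild-type cells and TRIM27 knockout cells (TRIM27 is a tripartite motif ubiquitin ligase), each without treatment, after 24 h in 2 µM olaparib, and 48 h after transfection of an siRNA against PARP1 at a labelled 100 pM (siPARP1). Olaparib blocks the catalytic activity of PARP1 and PARP2 and holds them on DNA, whereas the siRNA lowers PARP1 RNA. DMSO and a non-targeting siRNA appear in the protocols, yet none of the labels assigns a library to them. Effects of agent, vehicle, transfection and time in culture therefore cannot be told apart. The sources used here do not say whether the knockout cells are 1 clone or a pool.

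Homologous recombination repairs a double-strand break by copying the sister chromatid. The MRN complex and ATM sense the break, the ends are cut back to single strands, BRCA1, PALB2 and BRCA2 prepare them for strand invasion, and joint molecules are then dissolved or cut. In the Fanconi pathway a core ubiquitin ligase modifies the FANCD2 and FANCI pair at crosslinked DNA, and repair is completed by recombination. Cells that lack these functions are known for sensitivity to PARP inhibitors, and many of the genes are transcribed mainly in late G1 and S phase.

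Values are FPKM, fragments scaled to transcript length and to the library's total of fragments. A gene was tested if it reached 1 FPKM in at least 3 libraries, which left 15764 genes and 49 of the 50 members. The exception was MDC1, the scaffold that spreads the break signal along chromatin, at 0.418 to 0.807 FPKM in the 18 libraries. Log2 changes are differences of group means of log2(FPKM + 1), from 1 limma fit of all 6 groups, and understate the change of genes with low values. They are given with a standard error (SE) or 95% confidence interval. A gene was called higher or lower at an adjusted p (Benjamini-Hochberg, over all tested genes) under 0.05. Each mean in FPKM is over 3 libraries and is given with its standard deviation (SD).

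Read depth is unknown in absolute terms, and relative depth ran from 0.751 to 1.236, with the first untreated wild-type library set to 1. Libraries correlated across genes at 0.9831 to 0.9881 within groups and at 0.9332 to 0.9815 between groups. Loci without a gene name held 47.77 to 49.77% of the summed FPKM in untreated libraries and 43.41 to 47.26% in treated ones, so values rescaled to the named genes are given where they matter. TRIM27 was at 1.18, 1.51 and 1.65 FPKM in untreated wild-type cells and at 0.665, 0.547 and 0.658 in untreated knockout cells (log2 change -0.59, SE 0.10), and over all settings at 1.18 to 2.44 in wild-type and 0.547 to 1.04 in knockout libraries. PARP1 was at 59.1, 54.5 and 54.9 FPKM in untreated wild-type cells, at 36.7, 41.9 and 37.9 under olaparib and at 9.94, 10.6 and 11.7 under siPARP1. The 7 mesenchymal markers of this line passed the filter, with a summed level of 3011 to 4240 FPKM, while 4 of 6 epithelial markers stayed under 1 FPKM in all libraries and the 6 summed to 142 to 377 FPKM. Of the 7 luminal markers 3 stayed under 1 FPKM, and the 7 summed to 822 to 2522 FPKM. Of the markers of other cell types, 4 of 5 for leukocytes (CD3E at 0 throughout), 4 of 4 for endothelium and 2 of 5 for fibroblasts also stayed under 1 FPKM.

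Promoter sequences are printed for the members that moved most under olaparib in wild-type cells, the 3 largest falls (EXO1, BRIP1 and BARD1) and the 2 largest rises (RAD52 and RAD51C). Each runs from 150 bases before to 30 bases after a transcript start of RefSeq on GRCh38.p14, 5′ to 3′ on the strand of the gene. They lie at chr1:241848054-241848233 (plus strand), chr17:61863499-61863678 (minus), chr2:214809654-214809833 (minus), chr12:990012-990191 (minus) and chr17:58692423-58692602 (plus). EXO1, RAD52 and RAD51C have 2 entries each, of which 1 is shown, and capitals mark matches to the motifs named after the sequences.
EXO1: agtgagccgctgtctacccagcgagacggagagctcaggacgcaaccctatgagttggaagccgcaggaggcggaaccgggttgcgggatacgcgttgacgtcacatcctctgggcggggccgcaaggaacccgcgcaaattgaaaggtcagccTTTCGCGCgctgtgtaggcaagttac
BRIP1: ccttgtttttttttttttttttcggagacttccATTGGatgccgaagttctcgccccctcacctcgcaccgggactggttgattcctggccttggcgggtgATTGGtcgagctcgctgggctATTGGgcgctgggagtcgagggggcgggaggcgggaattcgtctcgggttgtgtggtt
BARD1: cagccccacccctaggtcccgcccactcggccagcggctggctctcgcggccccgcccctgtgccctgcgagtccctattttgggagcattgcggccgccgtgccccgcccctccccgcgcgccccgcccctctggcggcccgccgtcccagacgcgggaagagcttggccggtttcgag
RAD52: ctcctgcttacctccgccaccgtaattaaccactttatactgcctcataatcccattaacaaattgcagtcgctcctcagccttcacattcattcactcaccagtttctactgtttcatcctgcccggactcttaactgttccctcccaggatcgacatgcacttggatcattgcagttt
RAD51C: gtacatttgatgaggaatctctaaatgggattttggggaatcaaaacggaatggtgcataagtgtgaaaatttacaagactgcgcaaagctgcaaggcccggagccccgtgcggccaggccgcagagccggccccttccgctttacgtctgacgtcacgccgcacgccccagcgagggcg
The motifs were searched on both strands from 250 bases before to 50 bases after the start. They were an E2F-like set (TTTCCCGC, TTTGGCGC, TTTCGCGC and TTTGCCGC), a CHR-like pair (TTTGAA and TTCGAA) and the NF-Y core CCAAT, and none of them is contained in another. EXO1 holds the E2F-like TTTCGCGC just past its start. BRIP1 holds 3 copies of CCAAT on the opposite strand, which read ATTGG in the printed line, and a CHR-like TTTGAA further upstream. No match was found in the printed BARD1, RAD52 and RAD51C entries. RefSeq entries were matched for 46 of the 50 members, 61 entries in all. E2F-like matches were in 8 of these entries (13.1%), those of EXO1, FANCA, FANCC, FANCD2, GEN1, RMI1, TOPBP1 and XRCC2, and in 3.31% of all 35116 entries. CHR-like matches were in 16.4% of the members' entries and 16.35% of all entries, and CCAAT was in 45.9% and 34.61%. A match describes letters only, and binding was not measured.

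In untreated wild-type cells the members covered more than an order of magnitude on this per-length scale. FANCI, the partner of FANCD2, was highest at 31.3 ± 0.36 FPKM. UBE2T (the E2 enzyme of the core ligase, 23.3 ± 2.4), TOPBP1 (an activator of ATR, 23 ± 0.87) and RAD51AP1 (a strand invasion cofactor, 22.2 ± 3.5) came next and did not differ beyond their SDs. Above MDC1, the lowest were FANCM (the translocase that anchors the core complex, 2.95 ± 0.43), BRCA2 (3.12 ± 0.24) and SLX4 (a nuclease scaffold, 3.32 ± 0.32), which also lay within their SDs of each other.

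Olaparib was followed by lower RNA of most of the pathway in both genotypes, and by higher RAD51C and RAD52. Of the 9 role groups, end resection and the BRCA complexes had the lowest median log2 changes in wild-type cells (-1.45 and -1.01). In wild-type cells 36 of 49 members were called lower, where 20.4% of all tested genes were, and 3 were called higher, where 24.9% of all genes were. In knockout cells 33 members were called lower (22% of all genes) and 4 higher (25.2% of all genes). Over the members the median log2 change was -0.56 (wild type) and -0.55 (knockout), against 0.03 over all genes in both genotypes. In wild-type cells 39 members had all 3 olaparib libraries below all 3 untreated ones, as did 25.7% of all genes. Of the members, 31 were called lower in both genotypes, a joint count that was not made over all genes. With values rescaled to the named genes the members' medians were -0.63 and -0.64. In bulk RNA, fewer cells that express a gene and less RNA per cell cannot be told apart.

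**Figure D1:**
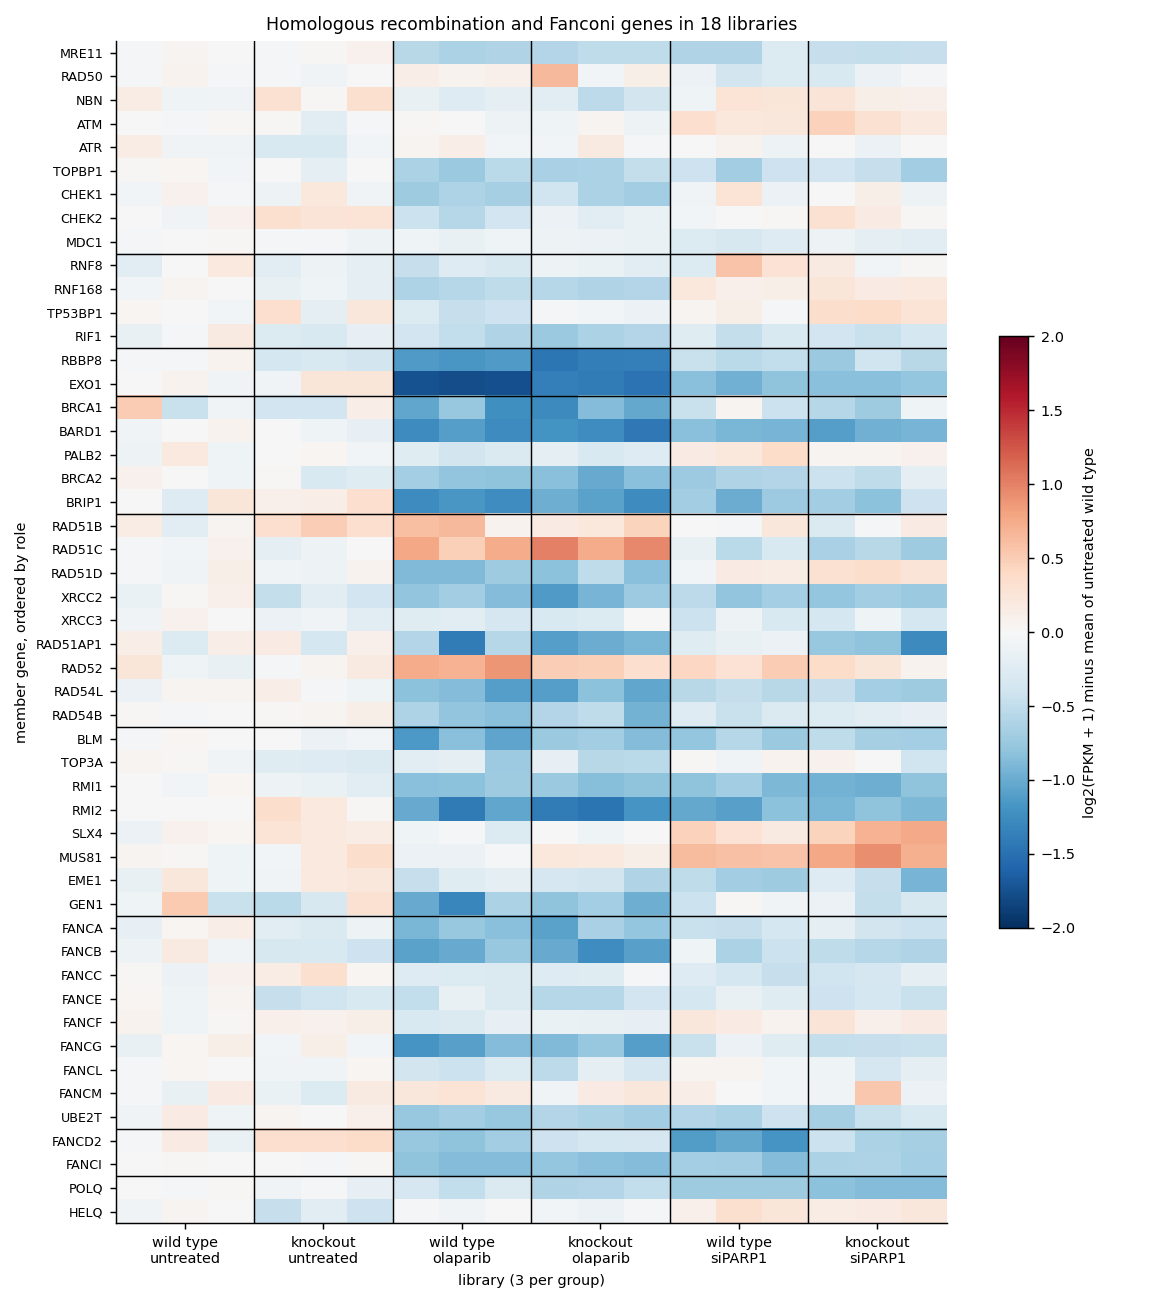
Each row is a member and each column a library, ordered by group, with rows in order of role. Colour gives log2(FPKM + 1) minus the mean of untreated wild type. The 6 olaparib libraries are below untreated wild type in most rows, most of all at EXO1, while RAD51C and RAD52 are above it.

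Both end-resection genes fell. EXO1, the exonuclease of long-range resection (ENSG00000174371), was at 15.3, 16.2 and 14.6 FPKM in untreated wild-type cells and at 3.86, 3.8 and 3.81 under olaparib. All 3 treated libraries lay below every untreated one, and the log2 change of -1.76 (SE 0.075, adjusted p = 1.68e-10) was the largest fall among the members in that comparison. In knockout cells EXO1 went from 14.6, 18.2 and 18.3 FPKM to 5.31, 5.23 and 4.9 (-1.55, SE 0.075). RBBP8 encodes CtIP, which starts resection together with MRN. It fell from 10.8, 10.7 and 11.6 to 4.5, 4.38 and 4.51 FPKM in wild-type cells (-1.14, SE 0.07, adjusted p = 7.92e-09) and from 8.42, 8.79 and 8.36 to 3.41, 3.62 and 3.67 in knockout cells (-1.06, SE 0.07). Neither gene had overlapping libraries between treated and untreated cells of a genotype.

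All 5 members of the BRCA complexes were called lower in both genotypes. BRIP1, the helicase that binds BRCA1, was at 6.93, 5.59 and 8.31 FPKM in untreated wild-type cells and at 2.3, 2.53 and 2.31 under olaparib. The groups did not overlap, and the log2 change was -1.22 (SE 0.13, adjusted p = 3.5e-06) in wild-type and -1.29 in knockout cells. With the deposited transcripts summed in place of the gene value (transcript sums, which hold 18.2% of the FPKM of BRIP1), neither BRIP1 change was called (-0.01 and -0.24, adjusted p = 0.978 and 0.265). BARD1, the obligate partner of BRCA1, fell from 8.12, 8.54 and 9.04 to 3, 3.44 and 2.99 FPKM in wild-type cells (-1.21, SE 0.07, adjusted p = 8.89e-09) and by 1.21 (SE 0.07) on the log2 scale in knockout cells. Here too the treated libraries all lay below the untreated ones.

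BRCA1 itself was uneven between untreated wild-type libraries, at 21.7, 10.7 and 14.2 FPKM. Under olaparib it was at 6.75, 8.41 and 5.77, below all 3 of them (-1.01, SE 0.24, adjusted p = 0.00353). In knockout cells it fell from 11.2, 11.3 and 16.4 to 5.59, 7.71 and 6.86 FPKM (-0.84, SE 0.24, adjusted p = 0.0107). Without the third untreated knockout library, the highest of its group, that change was -0.67 with an adjusted p of 0.0542. BRCA2, which acts with PALB2 on resected ends, fell from 3.38, 3.09 and 2.9 to 1.56, 1.38 and 1.35 FPKM in wild-type cells (-0.76, SE 0.10, adjusted p = 2.04e-05) and by 0.72 (SE 0.10) in knockout cells. PALB2, the bridge between BRCA1 and BRCA2, fell least of the 5, from 4.21, 5.36 and 4.23 to 3.72, 3.33 and 3.55 FPKM in wild-type cells (-0.30, SE 0.075, adjusted p = 0.00478). In knockout cells it fell by 0.25 (SE 0.075), a call that was lost without the second untreated or the second olaparib library (adjusted p up to 0.0531). With transcript sums, which hold 16.6% of its FPKM, PALB2 was not called in either genotype (-0.70 and 0.22, adjusted p = 0.324 and 0.768).

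Paralogs and strand exchange factors, from RAD51B to RAD54B, moved in both directions, with 6 of 9 called lower and 3 higher in wild-type cells. RAD51C, a subunit of both paralog complexes, was at 15.4, 15.1 and 16.7 FPKM in untreated wild-type cells and at 27.4, 22.2 and 26.9 under olaparib. Every treated library was above every untreated one (0.66, SE 0.10, adjusted p = 0.000121). In knockout cells it rose from 13.8, 14.5 and 15.5 to 32.4, 26.8 and 31.5 FPKM (1.0, SE 0.10, adjusted p = 2.12e-06). RAD52, which anneals single strands, rose from 7.41, 5.75 and 5.43 to 11, 10.6 and 12.2 FPKM in wild-type cells (0.78, SE 0.105, adjusted p = 2.97e-05) and from 5.93, 6.42 and 7.1 to 9.05, 8.98 and 8.06 in knockout cells (0.38, SE 0.105, adjusted p = 0.00905). The groups did not overlap in either genotype. The third rise, of the paralog RAD51B, was uneven, with 6.16, 6.42 and 3.96 FPKM under olaparib against 4.25, 3.09 and 3.92 without it (0.44, SE 0.15, adjusted p = 0.0312). Its call was lost without wild-type library 2 or 3 or without olaparib library 1 or 2 (log2 change 0.33 to 0.63, adjusted p up to 0.13). In knockout cells RAD51B was at 5.21 ± 0.39 FPKM without and 4.74 ± 0.61 with olaparib and was not called.

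The remaining genes of that group were lower in wild-type cells. The paralogs RAD51D and XRCC2 fell by 0.82 (SE 0.095) and 0.78 (SE 0.10) on the log2 scale, RAD51D from 4.85 ± 0.42 to 2.3 ± 0.22 FPKM and XRCC2 from 5.53 ± 0.53 to 2.8 ± 0.22. XRCC3, the partner of RAD51C in the smaller paralog complex, had a fall of 0.27 that was lost when any 1 of the 6 libraries except untreated library 1 was left out (adjusted p up to 0.129). RAD54L and RAD54B, translocases of strand invasion, fell by 0.93 (SE 0.10) and 0.74 (SE 0.095). RAD51AP1 was at 24.3, 18.1 and 24.2 FPKM in untreated wild-type cells and at 14.3, 7.75 and 14.6 under olaparib, so that the second library was lowest in both groups (-0.85, SE 0.21). In knockout cells RAD51D, XRCC2, RAD54L, RAD54B and RAD51AP1 were called lower as well, with RAD54L at -1.0 and RAD51AP1 at -0.97.

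**Figure D2:**
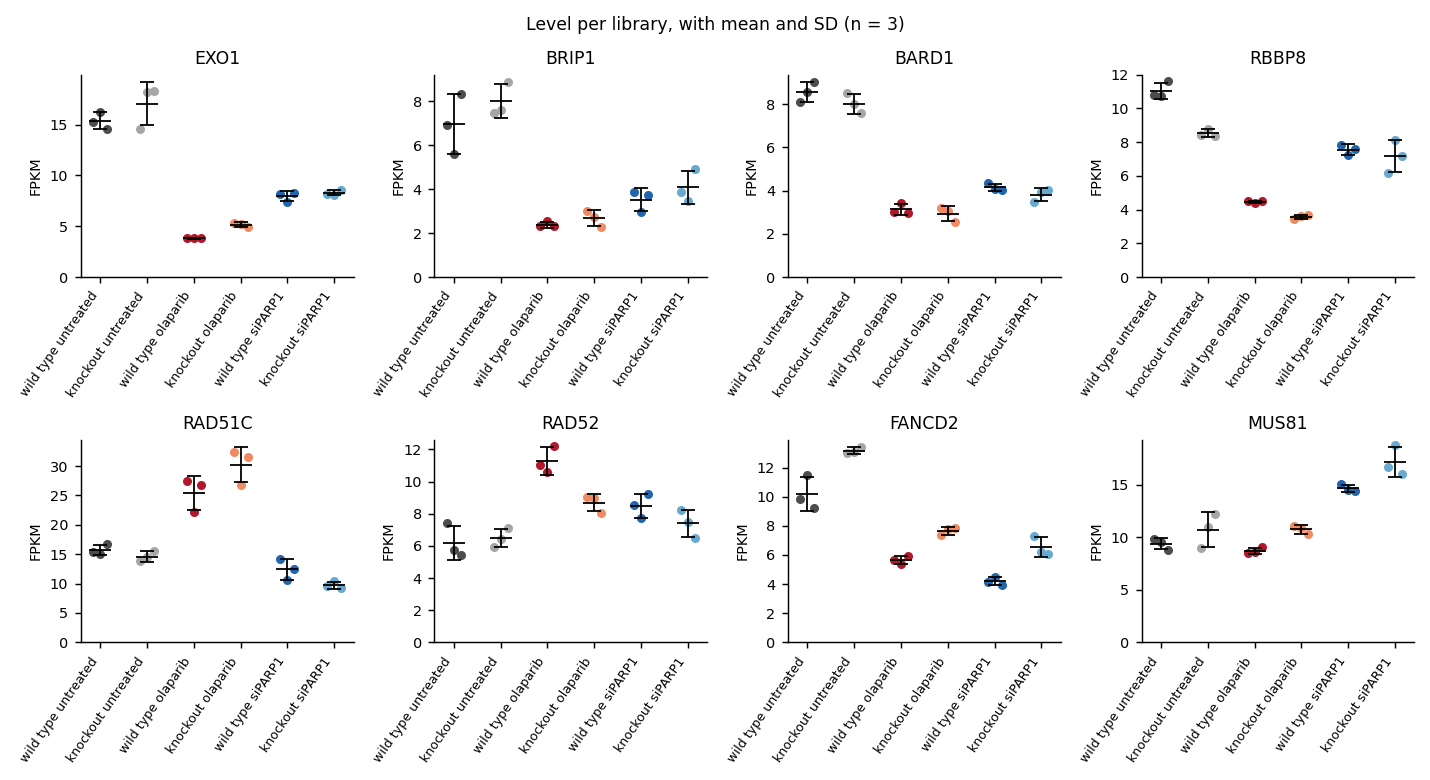
FPKM of 8 members in each library (points), with the mean and SD of the 3 libraries of a group. EXO1, BRIP1, BARD1 and RBBP8 have their lowest group means under olaparib, RAD51C has its highest there, FANCD2 is lowest under siPARP1 within each genotype, and MUS81 is highest under siPARP1.

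Of the 4 genes of the dissolvasome, which separates joint molecules without crossing over, RMI2, BLM and RMI1 fell in both genotypes. RMI2, a small subunit, went from 7.68, 7.67 and 7.59 to 3.29, 2.26 and 3.23 FPKM in wild-type cells (-1.15, SE 0.11, adjusted p = 1.2e-06) and from 10.0, 8.87 and 7.81 to 2.28, 2.15 and 2.82 in knockout cells (-1.53, SE 0.11). BLM, the helicase, fell by 1.01 (SE 0.08) and 0.70 (SE 0.08), and RMI1 by 0.79 (SE 0.06) and 0.65 (SE 0.06), in wild-type and knockout cells. TOP3A, the topoisomerase, had a fall of 0.38 in wild-type cells that was lost without any 1 untreated library or without olaparib library 3, the lowest (adjusted p up to 0.236). It was not called in knockout cells, at 8.84, 8.73 and 8.61 FPKM without and 9.48, 7 and 7.08 with olaparib (-0.15, interval -0.46 to 0.17).

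Among the resolvases and their scaffold, GEN1 was uneven without treatment, at 5.8, 9.46 and 4.34 FPKM, and at 2.6, 1.92 and 3.69 under olaparib (-0.98, SE 0.25, adjusted p = 0.00548). In knockout cells its change of -0.63 missed the threshold (adjusted p = 0.0529). MUS81 was not called in wild-type cells (log2 change -0.09, interval -0.28 to 0.09), nor were its partner EME1 (-0.30, interval -0.63 to 0.03) and SLX4 (-0.13, interval -0.33 to 0.07). EME1 was called lower in knockout cells (-0.55, SE 0.15).

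In the Fanconi core complex with its anchor and E2, 8 of 9 genes were called lower in wild-type and 7 in knockout cells. FANCG, a core subunit, fell from 4.69, 5.47 and 5.8 to 1.79, 1.97 and 2.48 FPKM in wild-type cells (-1.04, SE 0.11, adjusted p = 2.41e-06) and by 0.92 (SE 0.11) in knockout cells. FANCB, a scaffold of the catalytic module, fell by 0.94 (SE 0.12), FANCA by 0.84 (SE 0.105) and UBE2T by 0.74 (SE 0.09) in wild-type cells. The ubiquitin ligase subunit FANCL and the adaptor FANCF moved less (-0.36, SE 0.08 and -0.25, SE 0.06). FANCM was not called in either genotype (0.23, interval -0.11 to 0.57, in wild-type cells). The wild-type falls of FANCE and FANCC, of 0.31 and 0.28, rested on single libraries: the first was lost without olaparib library 1 (adjusted p = 0.0558), the second without untreated library 1 or 3 (adjusted p up to 0.0722). With transcript sums the wild-type changes of FANCB (-0.48, adjusted p = 0.0649) and FANCC (-0.37, adjusted p = 0.0664) were not called. Their knockout changes were not called either (-0.195 and -0.298, adjusted p = 0.453 and 0.132).

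Both members of the ID pair, the substrate of the core ligase, fell. FANCD2 went from 9.86, 11.5 and 9.21 to 5.62, 5.4 and 5.92 FPKM in wild-type cells (-0.75, SE 0.08, adjusted p = 1.95e-06) and from 13, 13.1 and 13.4 to 7.34, 7.77 and 7.85 in knockout cells (-0.71, SE 0.08). FANCI went from 30.9, 31.7 and 31.2 to 17.6, 16.7 and 16.7 FPKM in wild-type cells (-0.84, SE 0.05, adjusted p = 5.35e-09) and fell by 0.82 (SE 0.05) in knockout cells. With transcript sums, which hold 62.2% of its FPKM, the wild-type FANCD2 change was not called (-0.37, adjusted p = 0.191). In both genotypes the treated libraries of both genes lay below all untreated ones.

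Break sensors and kinases were affected unevenly, with 4 of 8 called lower in wild-type cells. CHEK1, the kinase that ATR activates at stalled forks, fell from 14.1, 15.8 and 14.5 to 8.6, 9.28 and 8.91 FPKM in wild-type cells (-0.67, SE 0.11, adjusted p = 0.000183) and by 0.59 (SE 0.11) in knockout cells. TOPBP1, MRE11 (the MRN nuclease) and CHEK2 (a kinase downstream of ATM) fell by 0.64, 0.59 and 0.46 in wild-type cells and were also called lower in knockout cells. ATM was at 18, 17.3 and 18.1 FPKM without treatment and 18.2, 17.8 and 16.5 with it in wild-type cells, overlapping groups with a log2 change of -0.02 (interval -0.19 to 0.14). ATR was not called in wild-type cells (0.04, interval -0.15 to 0.24). Its call as higher in knockout cells (0.25, SE 0.09, adjusted p = 0.0375) was lost without untreated library 1 or 2 or olaparib library 2 (adjusted p up to 0.166), with rescaled values (adjusted p = 0.147) and with transcript sums (-0.03, adjusted p = 0.959). The other MRN subunits, RAD50 and NBN, were not called in wild-type cells, and NBN was called lower in knockout cells (-0.59, SE 0.11).

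RNF168, the ubiquitin ligase that marks chromatin for 53BP1, fell from 4.61 ± 0.22 to 2.8 ± 0.14 FPKM in wild-type cells (-0.56, SE 0.05) and by 0.45 (SE 0.05) in knockout cells. RIF1, an effector of 53BP1 against resection, fell by 0.49 (SE 0.09) and 0.41 (SE 0.09). TP53BP1, the gene of 53BP1, was called lower in wild-type cells (-0.38, SE 0.10) and stood at -0.20 (adjusted p = 0.115) in knockout cells. POLQ, the polymerase of theta-mediated end joining, fell by 0.37 (SE 0.06) and 0.47 (SE 0.06). HELQ, a helicase of crosslink repair, was not called in wild-type cells (-0.04) and was called higher in knockout cells (0.30, SE 0.07, adjusted p = 0.00212).

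Knockdown of PARP1 was followed by lower FANCD2, RMI2, BARD1 and EXO1, and by higher MUS81, in both genotypes. In wild-type cells 25 of 49 members were called lower (22.3% of all genes) and 8 higher (29.5% of all genes). In knockout cells 22 were called lower (22.8% of all genes) and 6 higher (31.9% of all genes). Over the members the median log2 change was -0.27 (wild type) and -0.20 (knockout), against 0.07 over all genes in both genotypes. Of the members, 19 were called lower and 5 higher in both genotypes, joint counts that were not made over all genes. The balance of calls over all genes depended on scaling: 57% of wild-type and 58.4% of knockout calls were higher as deposited, and 43.3% and 44% after rescaling to the named genes. That rescaling moved the median of all genes in knockout cells from 0.07 to -0.04 and the members' medians to -0.41 and -0.35. Both treatments are set against the same untreated libraries.

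FANCD2 had the largest fall under siPARP1 in wild-type cells, to 4.13, 4.51 and 3.94 FPKM against 9.86, 11.5 and 9.21 without treatment (-1.10, SE 0.08, adjusted p = 2.27e-08). In knockout cells it went from 13, 13.1 and 13.4 to 7.31, 6.21 and 6.05 FPKM (-0.92, SE 0.08). All treated libraries were below all untreated ones in each genotype. FANCI fell by 0.75 (SE 0.05) and 0.64 (SE 0.05).

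RMI2 was at 3.25, 3.09 and 3.91 FPKM in wild-type and 3.58, 3.96 and 3.66 in knockout cells under siPARP1 (-0.98, SE 0.11 and -1.06, SE 0.11), and RMI1 fell by 0.80 (SE 0.06) and 0.76 (SE 0.06). EXO1 was at 8.2, 7.36 and 8.31 FPKM in wild-type cells (-0.87, SE 0.075, adjusted p = 2.24e-07), between its untreated and its olaparib levels, and fell by 0.95 (SE 0.075) in knockout cells. Of the BRCA complexes, BARD1 fell to 4.34, 4.07 and 4.03 FPKM in wild-type cells (-0.90, SE 0.07, adjusted p = 1.52e-07) and by 0.91 (SE 0.07) in knockout cells, and BRIP1 by 0.80 (SE 0.13) and 0.83 (SE 0.13). With transcript sums neither BRIP1 change was called (-0.17 and -0.39, adjusted p = 0.412 and 0.0584). BRCA2 fell in wild-type cells, to 1.48, 1.71 and 1.73 FPKM (-0.64, SE 0.10, adjusted p = 7.92e-05), and was not called in knockout cells (-0.20, interval -0.42 to 0.01). BRCA1, at 10.6, 15.6 and 10.8 FPKM in wild-type cells, was not called in either genotype (-0.28, interval -0.80 to 0.25, and -0.24, interval -0.76 to 0.28). POLQ was at 3.37, 3.39 and 3.4 FPKM against 6.16, 6.1 and 6.27 without treatment (-0.71, SE 0.06, adjusted p = 1.03e-07) and fell by 0.76 (SE 0.06) in knockout cells. Treated and untreated POLQ libraries did not overlap.

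RAD51AP1 fell in knockout cells (-0.91, SE 0.21, adjusted p = 0.00196), from 24.8, 17 and 23.6 to 12.7, 12.2 and 8.55 FPKM, and was not called in wild-type cells (-0.17, interval -0.62 to 0.28). RAD51C, which rose under olaparib, was called lower under siPARP1 in both genotypes. It was at 9.61, 10.4 and 9.2 FPKM in knockout cells (-0.54, SE 0.10, adjusted p = 0.000478) and at 14.1, 10.5 and 12.6 in wild-type cells (-0.33, SE 0.10, adjusted p = 0.0165). The wild-type call was lost without untreated library 3 or siPARP1 library 2 (-0.42 to -0.22, adjusted p up to 0.0894). CHEK1 was not called under siPARP1 (0.03, interval -0.21 to 0.26, in wild-type cells), and neither was ATR (-0.01, interval -0.21 to 0.18).

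MUS81, the nuclease that cuts joint molecules and stalled forks, was at 15, 14.5 and 14.4 FPKM under siPARP1 and 9.85, 9.56 and 8.8 without treatment in wild-type cells (0.59, SE 0.085, adjusted p = 4.03e-05). In knockout cells it rose from 8.96, 11 and 12.2 to 16.7, 18.8 and 16.1 FPKM (0.64, SE 0.085, adjusted p = 1.6e-05), again with no overlap. Its partner EME1 fell, by 0.64 (SE 0.15) in wild-type and 0.67 (SE 0.15) in knockout cells. RAD52 rose in wild-type cells (0.41, SE 0.105, adjusted p = 0.00492), to 8.52, 7.74 and 9.21 FPKM. With rescaled values MUS81 (0.49) and RAD52 (0.31) kept their wild-type calls. The other 6 members called higher in wild-type cells lost theirs under rescaling and kept a positive sign: SLX4 (0.24), PALB2 (0.15), ATM (0.14), HELQ (0.14), FANCF (0.04) and RNF168 (0.04). As deposited, ATM was at 22.7, 20.8 and 20.9 FPKM (0.26, SE 0.08, adjusted p = 0.0107), and PALB2 at 5.27, 5.45 and 6.16 (0.25, SE 0.075, adjusted p = 0.0133). All of these 6 except ATM also lost their call without single libraries. These were untreated and siPARP1 libraries 1 for SLX4 (adjusted p up to 0.0656), untreated 1 and 3 and siPARP1 3 for PALB2 (0.0664), and untreated 1 and siPARP1 2 for HELQ (0.0674). They were untreated 2 and 3 and siPARP1 1 and 2 for FANCF (0.164), and untreated 1 and 3 and siPARP1 1 for RNF168 (0.107). In knockout cells HELQ (0.55, SE 0.07), SLX4 (0.43, SE 0.09), ATM (0.39, SE 0.08) and RNF168 (0.35, SE 0.05) were called higher and remained so after rescaling. With transcript sums, which hold 26.4% of its FPKM, the ATM change was not called in either genotype (0.48 in wild-type and 0.08 in knockout cells, adjusted p = 0.404 and 0.899), nor was the wild-type PALB2 change (0.29, adjusted p = 0.684). RAD51D (0.33, SE 0.095) was called higher as deposited and not after rescaling (adjusted p = 0.107).

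**Figure D3:**
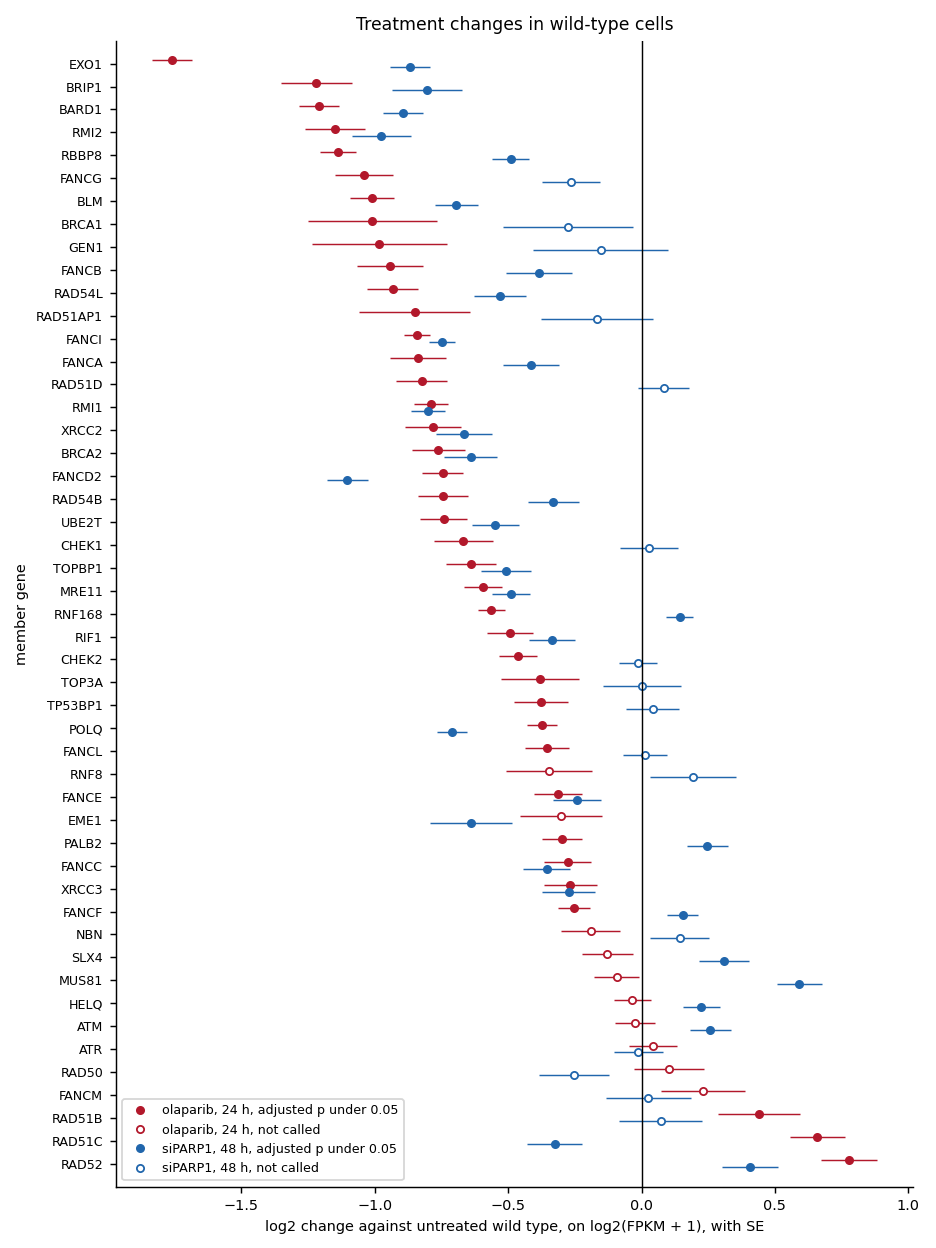
Each row is 1 of the 49 tested members in wild-type cells, and the horizontal axis is the log2 change from untreated with SE bars, in red for olaparib and blue for siPARP1, filled where called. Both colours use the same 3 untreated libraries and are not independent. EXO1 is lowest under olaparib at -1.76, FANCD2 is lowest under siPARP1 at -1.10, and RAD51C lies on opposite sides of 0.

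Set directly against each other, the olaparib cells had less RNA of most members than the siPARP1 cells. The untreated libraries entered this comparison through the estimate of spread and not through the means compared. In wild-type cells 28 of 49 members were called lower under olaparib (28.3% of all genes) and 5 higher (23.4% of all genes). In knockout cells 25 were called lower (29.7% of all genes) and 4 higher (22.4% of all genes). The members' medians were -0.32 and -0.30, against -0.05 and -0.06 over all genes. Of the members, 21 were called lower and 4 higher in both genotypes, again without a joint count over all genes. Agent, transfection and time differ together here (24 h against 48 h) and cannot be told apart.

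RAD51D, a paralog of the larger complex, was at 2.17, 2.18 and 2.56 FPKM under olaparib and 4.6, 5.53 and 5.49 under siPARP1 in wild-type cells (-0.91, SE 0.095, adjusted p = 1.77e-06), and the difference was -1.03 in knockout cells. The libraries of the treatments did not overlap in either genotype. EXO1 (-0.89, SE 0.075) and FANCG (-0.77, SE 0.11) were among the other members lower under olaparib in wild-type cells, as were RBBP8 (-0.83, SE 0.07), RNF168 (-0.79, SE 0.05), SLX4 (-0.65, SE 0.09) and MUS81 (-0.63, SE 0.085) in knockout cells. CHEK1 was lower under olaparib in both (-0.70, SE 0.11 and -0.58, SE 0.11). The wild-type differences of GEN1 (-0.83) and BRCA1 (-0.73) were lost without single libraries, GEN1 without olaparib library 2 (adjusted p = 0.063) and BRCA1 without olaparib library 1 or 3 or siPARP1 library 2 (adjusted p up to 0.0939). With transcript sums BRCA1 was at -0.69 (adjusted p = 0.0669).

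RAD51C was higher under olaparib, by 0.99 (SE 0.10, adjusted p = 1.8e-06) in wild-type and 1.54 in knockout cells. FANCD2 was also higher under olaparib than under siPARP1, by 0.36 in wild-type and 0.21 in knockout cells, although it was below the untreated level under both. The knockout call was lost without olaparib or siPARP1 library 2 or 3 (adjusted p up to 0.134), and with transcript sums its sign turned (-0.46, adjusted p = 0.0979). POLQ stood higher by 0.34 and 0.29. RAD50 was called higher in both genotypes too (0.35, SE 0.13 and 0.38, SE 0.13), but lost the wild-type call without any 1 library other than siPARP1 library 1 and the knockout call without library 1 of either treatment, of which the olaparib one stood at 29.4 FPKM (adjusted p up to 0.117 and 0.111). With transcript sums the knockout difference of RAD50 was 0.45 (adjusted p = 0.0858).

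Between genotypes few members differed. In untreated cells 2 of 49 were called higher in the knockout (9.58% of all genes) and 4 lower (10.9% of all genes). Under olaparib 3 were higher (5.68% of all genes) and 3 lower (7.16% of all genes), and under siPARP1 2 were higher (11.8% of all genes) and 2 lower (11.2% of all genes). These shares are near or below those of all genes. In none of the 3 settings were 37 members called, a count that was not made over all genes. The members' medians were -0.03, 0.01 and 0.01. BRCA1 (-0.21, interval -0.73 to 0.31), BRCA2 (-0.17, interval -0.38 to 0.04), PALB2 (0.00, interval -0.17 to 0.16), FANCI (0.00, interval -0.11 to 0.10) and CHEK1 (0.01, interval -0.23 to 0.25) were not called in untreated cells.

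FANCD2 was higher in knockout cells in all 3 settings. Untreated it was at 13, 13.1 and 13.4 FPKM in knockout and 9.86, 11.5 and 9.21 in wild-type cells (0.35, SE 0.08, adjusted p = 0.0049). Under olaparib the difference was 0.38 (adjusted p = 0.00387) and under siPARP1 0.53 (adjusted p = 0.000163). With transcript sums the difference under olaparib had the opposite sign and was not called (-0.39, adjusted p = 0.305). In the gene values, no knockout library overlapped a wild-type library of the same setting. The gene (ENSG00000144554) lies on chromosome 3, and its neighbours were higher as well. Within 5 Mb of it 63 other genes were tested, with median differences of 0.38, 0.41 and 0.47 untreated, under olaparib and under siPARP1, and 54 of them were above 0 in all 3 settings. Of the 63, 35, 36 and 40 were called higher, while the median over the 843 tested genes of the chromosome was 0.11 in untreated cells. After the median of each 10 Mb bin was subtracted, an alternative chosen after seeing the data, FANCD2 differed by 0.03, -0.04 and 0.14 (adjusted p = 0.839, 0.835 and 0.254).

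**Figure D4:**
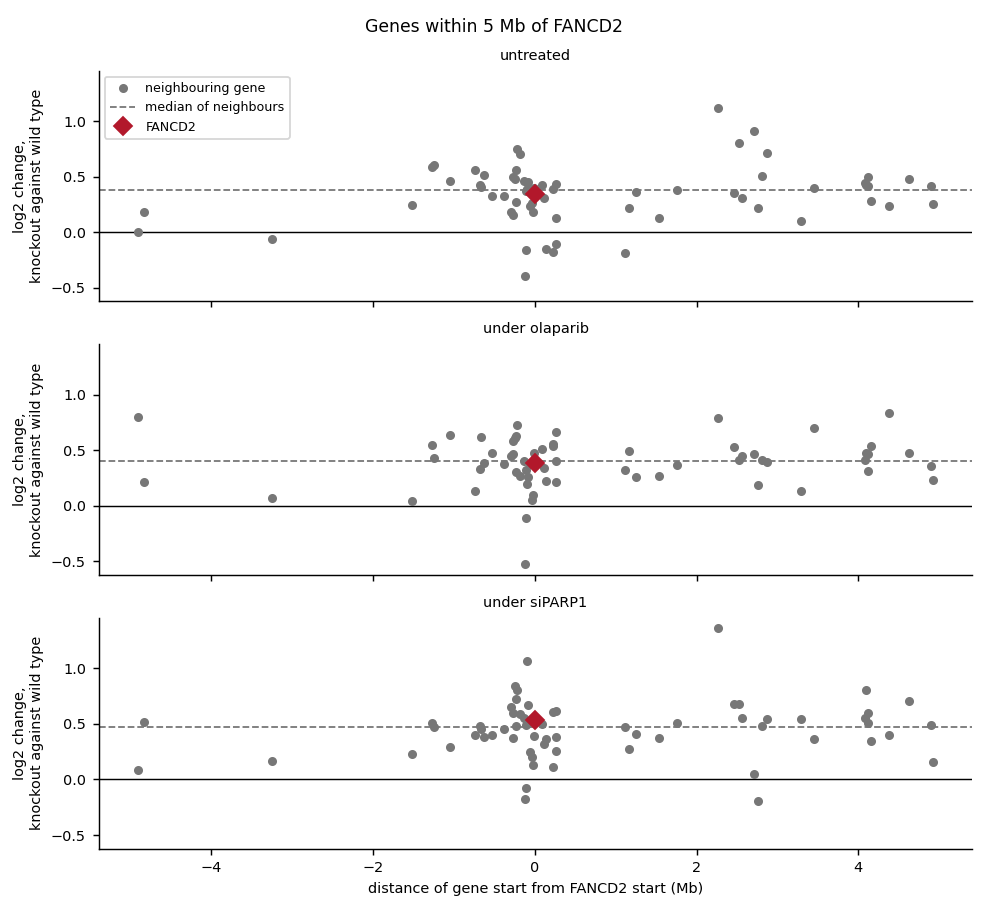
Knockout minus wild-type difference on the log2 scale for the 63 genes tested within 5 Mb of FANCD2 and for FANCD2 itself, against distance in Mb, in 3 settings. Most points lie above 0 on both sides, and FANCD2 (0.35, 0.38 and 0.53) lies among them.

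Other differences between genotypes were found in 1 or 2 settings. HELQ was lower in untreated knockout cells, at 2.16, 2.71 and 2.26 against 3.15, 3.54 and 3.39 FPKM (-0.37, SE 0.07, adjusted p = 0.00136), with no overlap. RBBP8 was lower untreated (-0.34, SE 0.07, adjusted p = 0.00289) and under olaparib (-0.26, SE 0.07, adjusted p = 0.0226), the second call being lost without any 1 of the 6 libraries except the third knockout one (adjusted p up to 0.083). FANCE was lower untreated (-0.39, SE 0.09, adjusted p = 0.00583), at 2.84, 3.01 and 3.32 against 4.45, 3.99 and 4.51 FPKM. With transcript sums, which hold 41.2% of its FPKM, the difference had the opposite sign and was not called (0.15, adjusted p = 0.54). CHEK2 was higher untreated (0.29, SE 0.07, adjusted p = 0.00932) and under olaparib (0.31, SE 0.07), and the 88 genes tested within 5 Mb had medians of 0.14 and 0.08. EXO1 was higher under olaparib, at 5.31, 5.23 and 4.9 against 3.86, 3.8 and 3.81 FPKM (0.35, SE 0.075, adjusted p = 0.006), so that its residual level was above that of wild-type cells in every library.

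The other called differences each rested on few libraries. RAD51AP1 was lower under siPARP1 (-0.77, SE 0.21, adjusted p = 0.0153), but without the third knockout library, at 8.55 FPKM, the change was -0.61 with an adjusted p of 0.0725, and the 84 genes within 5 Mb had a median of -0.25. RAD52 was lower under olaparib (-0.34, SE 0.105, adjusted p = 0.0484) and lost the call when any 1 of the 6 libraries was left out (adjusted p up to 0.171), and the 32 genes within 5 Mb had a median of -0.28. XRCC2 was lower untreated (-0.36) and lost the call without wild-type library 2 or 3 or knockout library 1 or 3 (adjusted p up to 0.105). POLQ was lower under olaparib (-0.19) and lost it without wild-type library 1 or 3 or knockout library 1 or 2 (up to 0.178). Under siPARP1 RAD51C was lower (-0.31) and lost the call without library 1 or 3 of either genotype (up to 0.175). SLX4 was higher under siPARP1 (0.32) and lost the call without library 2 or 3 of either genotype (up to 0.0985). In the same comparisons genes within 5 Mb had medians of -0.19 for XRCC2 (57 genes) and 0.18 for SLX4 (153 genes). The medians were 0.08 for POLQ (49 genes) and -0.02 for RAD51C (74 genes). With transcript sums the calls of RAD52 (adjusted p = 0.0514), XRCC2 (0.131) and RAD51C (0.252) were lost too. With 10 Mb bin medians removed, 5 of the 16 calls between genotypes held: EXO1 under olaparib (0.30), RAD51C under siPARP1 (-0.31), and FANCE (-0.30), HELQ (-0.38) and RBBP8 (-0.31) untreated. RAD52 then stood at -0.07 and RAD51AP1 at -0.48 (adjusted p = 0.821 and 0.165).

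Whether the knockout changed the response to a treatment was tested as an interaction. No member was called in either direction for olaparib (1.4% of all genes called higher and 1.66% lower) or for siPARP1 (2.74% and 2.52%). At an unadjusted p under 0.05, limma found 7 and 6 of 49 members, and 16% and 19.3% of all genes. HELQ had the smallest adjusted p for both, with interactions of 0.34 (interval 0.13 to 0.55, adjusted p = 0.0796) and 0.33 (interval 0.12 to 0.54, adjusted p = 0.0673), from a lower untreated level in knockout cells. For BRCA2 under siPARP1 the interaction was 0.44 (interval 0.14 to 0.74, adjusted p = 0.0929), and for RAD52 under olaparib -0.40 (interval -0.72 to -0.08, adjusted p = 0.186). EXO1 had interactions of 0.21 (interval -0.01 to 0.44) and -0.08 (interval -0.31 to 0.15).

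The deposited transcript values of RAD51C and RAD52 were compared under olaparib. RAD51C-201, a protein-coding transcript of 2591 nt, was at 2.6, 2.64 and 2.22 FPKM in untreated wild-type cells and at 4.48, 6.21 and 5.44 under olaparib. In knockout cells under olaparib it reached 6.32, 7.38 and 5.62, and under siPARP1 it was at 1.16, 1.26 and 1.25 in wild-type cells. The 3 wild-type groups did not overlap. RAD51C-211, annotated as a target of nonsense-mediated decay, was listed at 0 in untreated libraries of both genotypes. Under olaparib it was at 1.52, 1.02 and 0.976 FPKM in wild-type and at 0.412, 1.35 and 0.289 in knockout cells. RAD51C-209, with the same annotation, was also listed at 0 in the untreated libraries. Under olaparib RAD51C-209 was at 1.47, 0.71 and 1.36 FPKM in wild-type and at 0, 2.37 and 0 in knockout cells. Under siPARP1 it was at 1.58, 0 and 0 in wild-type cells. The retained-intron form RAD51C-214 was uneven in knockout cells under olaparib, at 6.93, 0.774 and 6.72 FPKM. Without treatment RAD51C-214 was at 1, 0.974 and 2.51 FPKM in knockout cells. The shorter coding forms differed in direction in wild-type cells. RAD51C-203 stood lower under olaparib, at 1.78, 2.02 and 0.667 against 2.66, 2.77 and 2.32 FPKM without treatment. RAD51C-205 stood higher, at 2.66, 3 and 3.28 against 1.15, 1.57 and 1.61 FPKM. Means went from 1.76 to 1.4 FPKM for RAD51C-202 and from 0.731 to 0.931 for RAD51C-217. In knockout cells RAD51C-203 had means of 1.65 without and 1.73 FPKM with olaparib.

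Of the RAD52 transcripts compared, RAD52-201 and RAD52-213, both annotated as non-coding, stood higher under olaparib without overlap in wild-type cells. RAD52-201, a retained-intron form of 2826 nt, was listed at 0, 0.0596 and 0.298 FPKM in untreated wild-type cells and at 1.78, 1.91 and 1.81 under olaparib. It was at 1.65, 1.65 and 1.64 under siPARP1 in wild-type cells, and at 0.271, 0 and 1.91 in knockout cells under olaparib, where the libraries were far apart. Those knockout libraries overlapped the untreated knockout ones, at 0.907, 0.085 and 0.694. RAD52-213, a processed transcript of 399 nt, was at 1.35, 0.726 and 1.09 FPKM without treatment and 2.95, 2.54 and 4.19 under olaparib in wild-type cells. The coding form RAD52-202 was at 1.93, 1.62 and 1.46 FPKM without and 1.53, 1.38 and 1.73 with olaparib in wild-type cells, with overlapping groups. In knockout cells the mean of RAD52-202 went from 1.07 to 1.78 FPKM under olaparib, also with overlap. RAD52-204, another coding form, had means of 0.534 without and 0.763 FPKM with olaparib in wild-type cells. Its means in knockout cells were 1.02 and 0.331 FPKM. These transcript values are the authors' estimates, in which a 0 can be a failed estimate, and were compared here without a test.

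**Figure D5:**
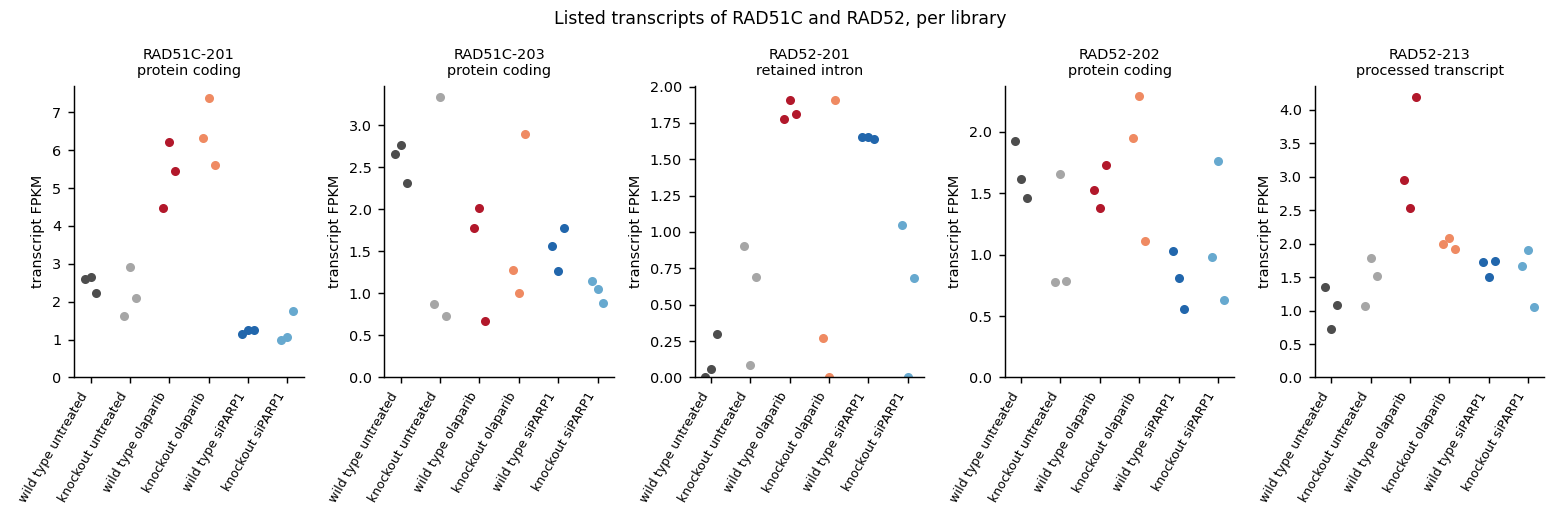
FPKM of 3 RAD52 and 2 RAD51C transcripts in each library, with 1 point per library and libraries ordered by group. RAD51C-201, RAD52-201 and RAD52-213 are higher under olaparib than without treatment in wild-type cells, while RAD52-202 overlaps.

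Other genes of these pathways, 60 from a list of which 58 were tested, were counted in the same way. Under olaparib 24 were called lower and 7 higher in wild-type cells (median -0.23) and 25 and 6 in knockout cells (median -0.20). Over all genes 20.4% and 22% were called lower and 24.9% and 25.2% higher. CLSPN, the mediator of CHEK1 activation, fell by 1.56 and 1.36, USP1, which deubiquitinates FANCD2, by 1.15 and 1.08, and HROB, which loads the MCM8 and MCM9 helicase, by 1.01 and 0.95. FBH1, a helicase that restrains recombination, rose by 0.63 and 0.76, and ERCC1, of the nuclease that unhooks crosslinks, by 0.55 and 0.58. RECQL5 (0.44, SE 0.08) and BABAM1 (0.31, SE 0.11) rose in wild-type cells, and SWI5 (0.35, SE 0.07) and ERCC4 (0.35, SE 0.08) in knockout cells.

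Under siPARP1 18 of these 58 genes were called lower in each genotype, and 11 and 12 higher in wild-type and knockout cells (medians -0.05 and -0.10). Over all genes 22.3% and 22.8% were called lower and 29.5% and 31.9% higher. MCM8, a helicase subunit, fell by 0.86 and 1.11, and PARPBP, an inhibitor of recombination, by 0.67 and 0.91. USP1 fell by 0.75 in wild-type cells and RPA1, of the single-strand binding complex, by 0.86 in knockout cells. RECQL5 rose by 0.79 and 0.80, BABAM1 by 0.66 and 0.67, and the translesion polymerase REV1 by 0.55 and 0.65. SHLD3, a subunit of shieldin, rose by 0.81 in wild-type cells, and ZSWIM7, which encodes the recombination cofactor SWS1, by 0.76 in knockout cells.

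Replication genes, which mark S phase, moved with the members. Of 34 tested, 32 and 28 were called lower under olaparib in wild-type and knockout cells (medians -1.0 and -0.91), and 29 and 27 under siPARP1 (medians -0.56 and -0.53), where 20.4% to 22.8% of all genes were. Of these genes 1 was called higher, under olaparib in knockout cells. MCM6, of the replicative helicase, was at 39.9 ± 0.48 FPKM in untreated wild-type cells and 10.2 ± 0.31 under olaparib. The mean z-score of the tested members ran from 0.678 to 0.723 in untreated wild-type libraries, from 0.026 to 0.104 under siPARP1 and from -0.727 to -0.664 under olaparib, and in knockout libraries from 0.467 to 0.669, from -0.035 to 0.094 and from -0.662 to -0.645. Outside the lists, the genes most like that mean over the 18 libraries were CCNA2 and KIF18B (Pearson r 0.989 each), TOMM20 (0.986), and TCOF1 and DTL (0.985 each). These points share libraries and treatment groups, so r is a description. CCNA2, the cyclin of S and G2 phase, had means of 36.4 FPKM in untreated wild-type cells, 12.9 under olaparib and 23.2 under siPARP1. Among the members, each of which is part of that mean, EXO1 followed it most closely (r 0.965), and RAD52 ran opposite to it (r -0.829). Cell-cycle phase was not measured, and its part in the members' changes was not tested.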

How the data were processed

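Gene and transcript expression had been measured by RNA sequencing of polyadenylated RNA in 18 libraries. Each library has an FPKM value per gene and per transcript in the deposited tables, normalised by the authors for length and library size. Per the submitters' processing notes, GRCh38 was the build, and the tools were StringTie 2.2.1, HISAT2 2.2.1, featureCounts 2.0.3, DESeq2 1.38.3 and fastp 0.23.2. Which tool made the FPKM, the annotation release and the strand setting are not given in the sources used here, so overlapping and antisense genes may share fragments.

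Groups came from the labels. log2(FPKM + 1) was fitted with limma 3.58.1 in R 4.3.3 (all 6 groups, mean-variance trend, 12 residual degrees of freedom) over genes that reached 1 FPKM in 3 or more libraries, with Benjamini-Hochberg adjustment. The fit was tested on simulated data with 200 changed genes. Positions came from GENCODE 29 (58308 identifiers matched). Full statistics were given for up to 8 falls and 8 rises per treatment comparison, up to 5 each in others, and BRCA1, BRCA2, PALB2, FANCD2, FANCI, ATM, ATR and CHEK1. Some genes of the other lists are not reported here by name. The members and lists were chosen with earlier results of these data known. Separate cultures are not stated for the libraries of a group. The p-values then reflect only the spread between libraries, which may be technical. No 2 libraries were identical. Alternatives were another pseudocount, other filters, 2 scalings, summed transcripts, a replicate block, the compared groups alone and leaving out each library. Replicate numbers are not said to pair samples, so the fit has no block, and same-numbered libraries did not deviate together.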

Additional observations from a re-analysis of the deposited data

How the results depend on the processing

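Of the 215 calls of members, 144 held under every alternative run and 168 under every one but transcript sums. The replicate block, tried although same-numbered libraries did not deviate together (correlation of deviations -0.071 to 0.087), kept 212 calls and lost 3, and it left 1 member lower in knockout than wild-type cells under olaparib. Counts of called members moved by over 1.5 times as follows, and the cause was not tested. With rescaled values 1 member was lower in knockout cells under olaparib, 2 were higher under siPARP1 in wild-type cells, and 8 were higher under olaparib than siPARP1 in wild-type cells. With median-of-ratios scaling these first 2 counts were 1 and 3. Over all genes the share of calls that were higher moved with the scaling as well. For siPARP1 in wild-type cells it was 57% as deposited, 43.3% with rescaled values and 48.3% with median-of-ratios scaling. For olaparib against siPARP1 in wild-type cells it was 45.3% as deposited and 54.7% with rescaled values. Between genotypes under olaparib it was 44.2% and 44.5%. With no filter on low values, 1 was lower in knockout cells under olaparib, 1 higher and 1 lower under siPARP1, and 2 were higher under olaparib than siPARP1 in knockout cells. With the compared groups alone, 5 were higher in knockout cells under olaparib, 1 lower under siPARP1, 4 higher under siPARP1 in wild-type cells and 2 higher under olaparib than siPARP1 in knockout cells. Transcript sums left 2 members lower in untreated knockout cells, 16 lower under olaparib than siPARP1 in knockout cells, and 1 with a negative siPARP1 interaction. With bin medians removed, 0 members were lower under olaparib and 0 higher under siPARP1 in knockout cells.

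Leaving out 1 library at a time gave 2 to 4 members higher in untreated knockout cells, 0 to 2 lower in knockout cells under olaparib, 1 to 2 higher and 0 to 2 lower under siPARP1, 4 to 7 higher under siPARP1 in wild-type cells, and 0 to 1 with a positive interaction for each treatment. Under olaparib 33 to 35 members were then lower in wild-type and 32 to 34 in knockout cells. Transcript sums, which hold 5.2% of the FPKM of FANCL, 16.6% of PALB2, 18.2% of BRIP1 and 26.4% of ATM, reversed 11 values. Between genotypes these were FANCE untreated (0.15) and FANCD2 under olaparib (-0.39, and -0.042 with bin medians removed). Under olaparib in knockout cells they were ATR (-0.025) and PALB2 (0.22). Of olaparib against siPARP1 they were NBN (0.045), ATM (0.68) and BRIP1 (0.16) in wild-type cells, and ATM (0.21), BRIP1 (0.15), PALB2 (0.004) and FANCD2 (-0.46) in knockout cells. Without read counts, the precision of low genes such as BRCA2 and SLX4 is limited by an unknown depth.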

Other observations

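End joining, the route that competes with recombination, had no common direction. Of 15 genes tested, 5 were called lower and 2 higher under olaparib in each genotype, and under siPARP1 6 and 4 were lower and 4 and 3 higher in wild-type and knockout cells. Over all genes the 4 comparisons called 20.4% to 22.8% lower and 24.9% to 31.9% higher. DCLRE1C, the Artemis nuclease, was lower under olaparib (-0.51 and -0.70) and under siPARP1 (-0.37 and -0.43). PRKDC, the DNA-dependent kinase, fell by 0.49 and 0.61 on the log2 scale under siPARP1.

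Among E2F and related cell-cycle regulators, of which 23 of 24 were tested, 10 were called lower in each of the 4 treatment comparisons, which share untreated libraries, where 20.4% to 22.8% of all genes were. Called higher were 3 and 2 under olaparib and 6 and 8 under siPARP1, in wild-type and knockout cells, and the medians were -0.15, -0.19, -0.26 and -0.05 in that order. E2F1 fell by 1.13 and 1.01 under olaparib and by 0.56 and 0.56 under siPARP1, and MYBL2 by 1.15, 1.0, 1.2 and 1.62. CCNE2, a cyclin of S-phase entry, fell by 1.67 and 1.27 under olaparib. CDKN1B, the CDK inhibitor p27, fell by 0.70 and 0.71 under olaparib and rose by 0.34 and 0.45 under siPARP1.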
